A study of Mus musculus with 4 samples.

Results

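Rora, Ahr, Hif1a and Egln3 encode regulators of Th17 differentiation and of the response to low oxygen, and their RNAs carried 11 of the 900 reproducible DDX5 peaks in cultured mouse Th17 cells. They are a chosen set of 4 among the 459 genes that the authors' annotation names in the peak list, and other genes of these pathways named there are given further on. The members were selected on a measured value, since a reproducible peak over the authors' minimum put each gene in the list, and their enrichment is therefore given as a description and not tested. The data came from enhanced crosslinking and immunoprecipitation (eCLIP), in which RNA fragments crosslinked to a protein by ultraviolet light are pulled down and sequenced beside an input library. The series holds 2 DDX5 IP libraries, made with an antibody to the RNA helicase DDX5, and 2 input libraries made with no antibody. All 4 came from wild-type C57BL/6 female mice, from naive CD4 T cells kept for 72 h in culture with the cytokines IL6 and TGFb and the antibodies anti-CD3 and anti-CD28. The sample labels give an age of 8 weeks, the series text gives 2 mice of 8 to 10 weeks, and neither says whether each replicate was 1 mouse.

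RORα, the product of Rora, is a nuclear receptor that takes part in setting up the Th17 programme. AHR is a receptor and transcription factor that is activated by small aromatic ligands and that controls IL-22 production by Th17 cells. HIF-1α, the product of Hif1a, is the oxygen-regulated subunit of the HIF-1 transcription factor, and AHR and HIF-1α both bind DNA together with ARNT. Egln3 encodes the prolyl hydroxylase PHD3, which uses oxygen to mark HIF-α proteins for degradation by way of VHL, and is itself a known target gene of HIF. DDX5 is a DEAD-box helicase that takes part in transcription, splicing and RNA processing.

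Both replicates together gave 1 log2 enrichment (IP over input) and 1 −log10 p for each peak. These are the authors' values, and an error between replicates cannot be derived from them. The files used here hold no read counts, so depth is unknown. The authors' minimum log2 enrichment was 3, and the member peak nearest to it was a Hif1a peak at 3.47. Of 26 marker genes of T, B, myeloid, cytotoxic and erythroid cells, 0 were named by a peak, which allows a share of up to 11.5% (3 counts of the total). Over all protein-coding genes the share named by a peak was only 1.81%, so this 0 says little about the markers. The label Th17 therefore could not be checked from these peaks.

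Rora had 5 peaks, and all lay in a stretch of 711 nt on the plus strand of chromosome 9 (69289904 to 69290614, mm10). From the 5′ side, their log2 enrichments were 6.49, 5.93, 5.99, 4.98 and 5.99. The mean was 5.88 ± 0.55 (SD over 5 peaks). The first peak was the highest, at 89.6-fold, and ranked 63rd of the 900 peaks and 5th of the 149 peaks in 5′ UTRs. The peak at 4.98 was 36 nt wide and stood below the others. Statistical support followed another order, since the second peak had the highest −log10 p of the gene (51.0) and the first had 25.5. One pair of neighbours touched (the peaks at 5.93 and the first 5.99), and the other gaps were 82, 160 and 19 nt, so the 5 peaks formed 4 sites.

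The Rora peaks began 222 to 853 nt downstream of the start of a short transcript (ENSMUST00000113624.2). This start lies 635896 nt downstream of the first start that the file annotates for the gene, inside an intron of the 2 longer transcripts. The first peak lay in the first exon of the short transcript, which is 367 nt long, and ended 10 nt before its coding sequence begins. The other 4 peaks lay in the intron that follows, 44, 139, 431 and 486 nt from its 5′ splice site. No Rora peak lay near the upstream start or in any later part of the gene.

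Ahr had 1 peak, on the minus strand of chromosome 12 (35534671 to 35534779). Its log2 enrichment was 4.93 (30.6-fold) with a −log10 p of 8.32, and 34.7% of the list stood below it. The peak was 109 nt wide and lay within the 415-nt 5′ UTR part of the first exon. It began 259 nt from the transcript start and ended 47 nt before the coding sequence. The file gives 1 Ahr transcript at this place, so no intron overlapped the peak.

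Hif1a had 3 peaks in 349 nt on the plus strand of chromosome 12 (73908377 to 73908725). Their log2 enrichments were 3.47, 4.21 and 4.60 from the 5′ side, with −log10 p values of 4.13, 7.28 and 9.56. These were the 3 lowest log2 enrichments among the 11 peaks, and the first Hif1a peak ranked 849th of 900 by enrichment. The first and second peaks touched, and the third lay 153 nt farther. The peaks began 473 to 762 nt from the start shared by 2 of the 3 annotated transcripts, and 52, 114 and 341 nt from the 5′ splice site of the intron that holds them. From the start of the third transcript, which lies 6529 nt upstream, they were 7002 to 7291 nt away.

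Egln3 had 2 peaks on the minus strand of chromosome 12, and they stood 15203 nt apart. The 5′ UTR peak (54203644 to 54203697) had a log2 enrichment of 6.18 (72.3-fold) and a −log10 p of 27.6, and ranked 14th of the 149 peaks in 5′ UTRs. It began 163 nt from the transcript start and ended 82 nt before the coding sequence. The intron peak (54188367 to 54188440) had a log2 enrichment of 5.45 (43.8-fold) and a −log10 p of 12.5. It lay 14764 nt from the 5′ splice site and 2706 nt from the 3′ splice site of an intron of 17544 nt. It was the only one of the 11 peaks that lay more than 1 kb from an annotated start.

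**Figure D1:**
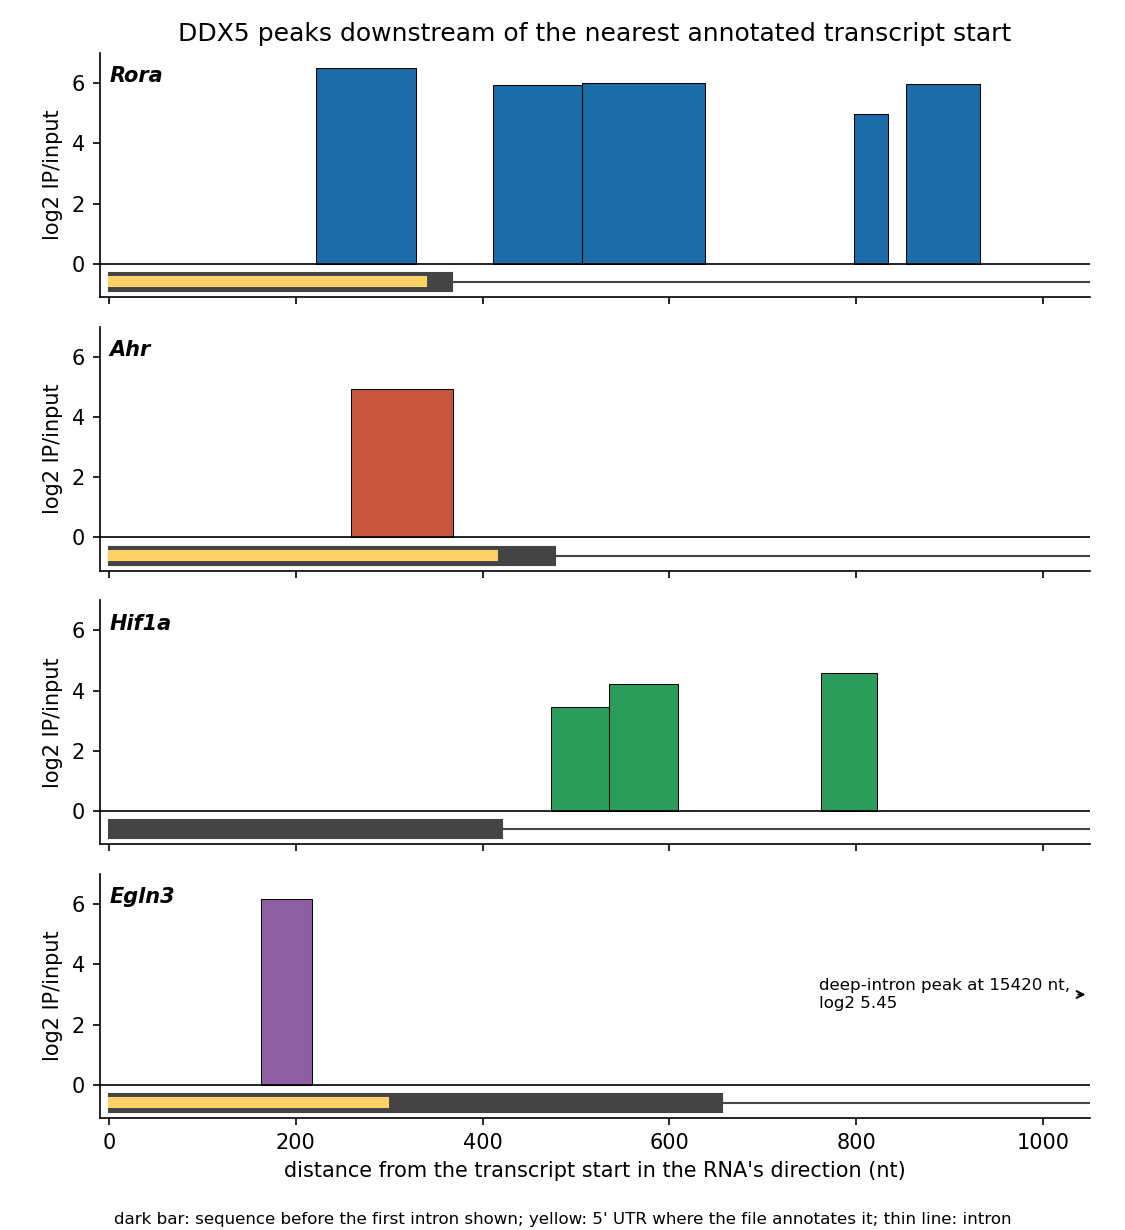
Peaks of the 4 genes by distance from the nearest annotated transcript start (x, nt in the direction of the RNA) with their log2 enrichment of IP over input (y, bar height; bar width is the peak's width). The gene model under each panel shows the sequence before the intron (dark), the 5′ UTR where the file annotates it (yellow) and the intron (line); all 5 Rora and all 3 Hif1a peaks begin within 853 nt of a start, and the intron peak of Egln3 at 15420 nt lies off the axis.

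By highest peak, the order was Rora (6.49), Egln3 (6.18), Ahr (4.93) and Hif1a (4.60), at places 36, 65, 313 and 362 of the 459 genes. Since each is 1 value for both replicates, it was not tested whether neighbours in this order differ. The ranges of Rora (4.98 to 6.49) and Egln3 (5.45 to 6.18) overlapped, whereas the highest Hif1a peak lay below every peak of the other 3 genes. By number of peaks, Rora was among the 29 genes with at least 5, Hif1a among the 89 with at least 3, and Ahr among the 283 genes with 1. A highest value tends to rise with the number of peaks, so the places by highest peak compare genes on unlike terms. The 11 peaks had a median log2 enrichment of 5.45 (quartiles 4.77 and 5.99), and the 889 other peaks had 5.31 (4.64 and 5.84). The median width was 74 nt for the 11 peaks and 65 nt for the other peaks. A fold over input depends on how much of each RNA the input held, which is not known here, so these values do not order the 4 RNAs by how much DDX5 they bound.

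**Figure D2:**
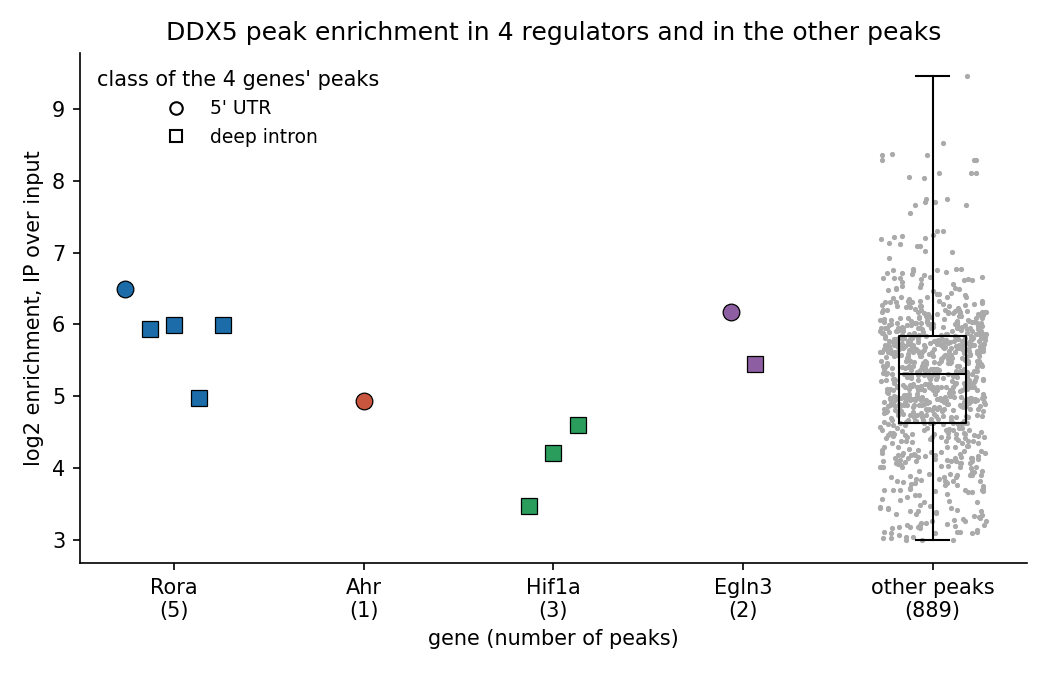
Log2 enrichment of IP over input (y) for each peak of the 4 genes, from 5′ to 3′ within a gene (circles, 5′ UTR; squares, deep intron), and for the 889 other peaks (grey points, with a box of median and quartiles and whiskers over the full range). Rora and Egln3 peaks lie between 4.98 and 6.49, and the 3 Hif1a peaks between 3.47 and 4.60.

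**Figure D3:**
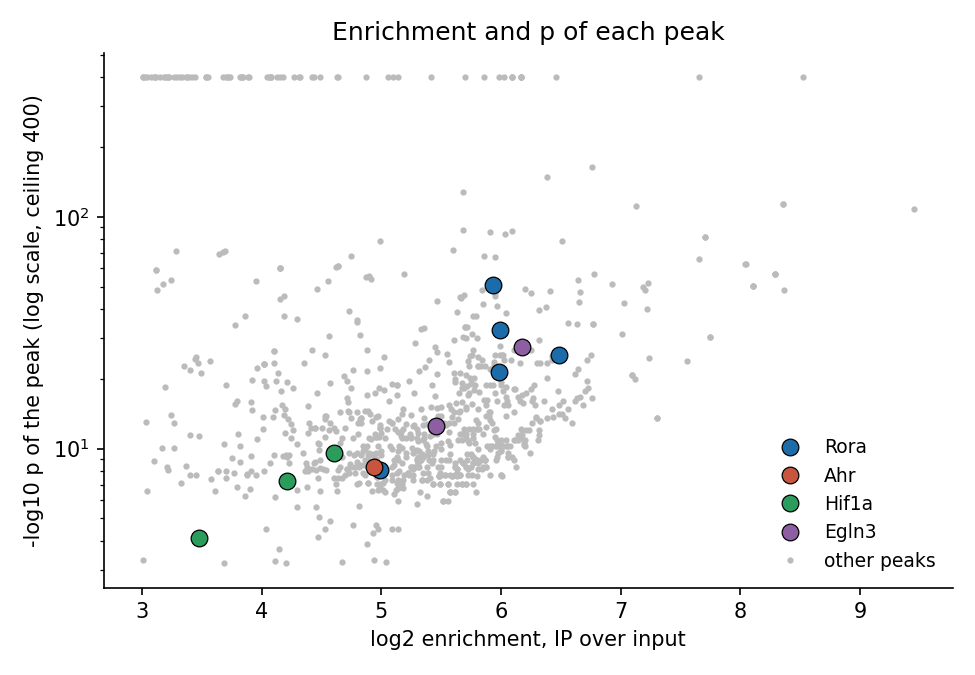
Log2 enrichment (x) against −log10 p (y, log scale with a ceiling of 400) for each peak of the 4 genes and for the 889 other peaks in grey. The member peaks run from 3.47 and 4.13 for the first Hif1a peak up to a −log10 p of 51.0 for the second Rora peak.

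The 11 peaks fell into 2 of the authors' region classes. Of them, 8 were classed as deep intron peaks (72.7%, exact Clopper-Pearson 95% interval 39.0 to 94.0) and 3 as 5′ UTR peaks (27.3%, 6.02 to 61.0). Among the 889 other peaks, 29.6% were deep intron and 16.4% were 5′ UTR peaks. The classes near a splice site, coding exon and 3′ UTR each held 0 of the 11 peaks. Of the 889 other peaks they held 27.2%, 10.5% and 1.24%, and each 0 allows a share of up to 27.3% (3 counts of the total). Peaks of 1 gene are not independent, so these intervals cover counting error only. Within the 5′ UTR class, the Rora, Egln3 and Ahr peaks stood at 6.49, 6.18 and 4.93, and the median of the other 146 was 5.27. Within the deep intron class, the 4 Rora peaks, the Egln3 peak and the 3 Hif1a peaks had a median of 5.22, and the other 263 had 5.62.

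For most of the deep intron peaks, the distance to a splice site depended on the transcript used. Whether the authors' label followed from this choice was not tested. For 7 of the 8 deep intron peaks (4 of Rora and 3 of Hif1a), another annotated transcript of the same gene placed a 5′ splice site 44 to 486 nt away, within the 498 nt reached by peaks of the near class. The transcript named in the file placed the closest splice site at least 57517 nt from these Rora peaks and at least 6878 nt from the Hif1a peaks. The first Rora peak, classed as 5′ UTR, also lay in an intron of its named transcript, 58121 nt from the closest splice site. Among the other 263 deep intron peaks, 87 lay within 498 nt of a splice site of any overlapping transcript of the gene (33.1%, 27.4 to 39.1). With splice sites of the named transcript only, these counts were 0 of 8 and 9 of 263. The 0 of 8 would allow a share of up to 37.5% (3 counts of the total) if the peaks were independent. They were not, since the 4 Rora peaks shared an intron of their named transcript, as did the 3 Hif1a peaks. The genes were also a chosen set, so this limit and the interval above cover counting error only. The Egln3 intron peak was deep by the one transcript that overlapped it.

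The distance from the start depended on the transcript in the same way. Of the 11 peaks, 10 began within 1 kb of the nearest annotated start of a protein-coding transcript (90.9%, 58.7 to 99.8), but only 2 did so when distance was taken from the 5′ end of the longest transcript, namely the 5′ UTR peaks of Ahr and Egln3. Among the 755 other peaks in protein-coding genes, 491 lay within 1 kb of the nearest start (65.0%, 61.5 to 68.4) and 392 within 1 kb of the 5′ end of the longest one (51.9%). Peaks of 1 gene are not independent and the genes were a chosen set. The intervals therefore cover counting error only, and the difference was not tested. The 8 peaks that moved were those of Rora and Hif1a (72.7% of the 11 peaks), and 99 of the other 755 moved likewise (13.1%). The nearest of several starts is closer by construction, and several protein-coding transcripts overlapped 8 of the 11 peaks and 528 of the other 755. The median distance from the nearest start was 506 nt for the 11 peaks and 459 nt for the others. In the 3 peaks that lay in a 5′ UTR whose exon runs into coding sequence, the distance to that sequence was 10, 47 and 82 nt, and in 61 other peaks of this kind the median was 83 nt.

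**Figure D4:**
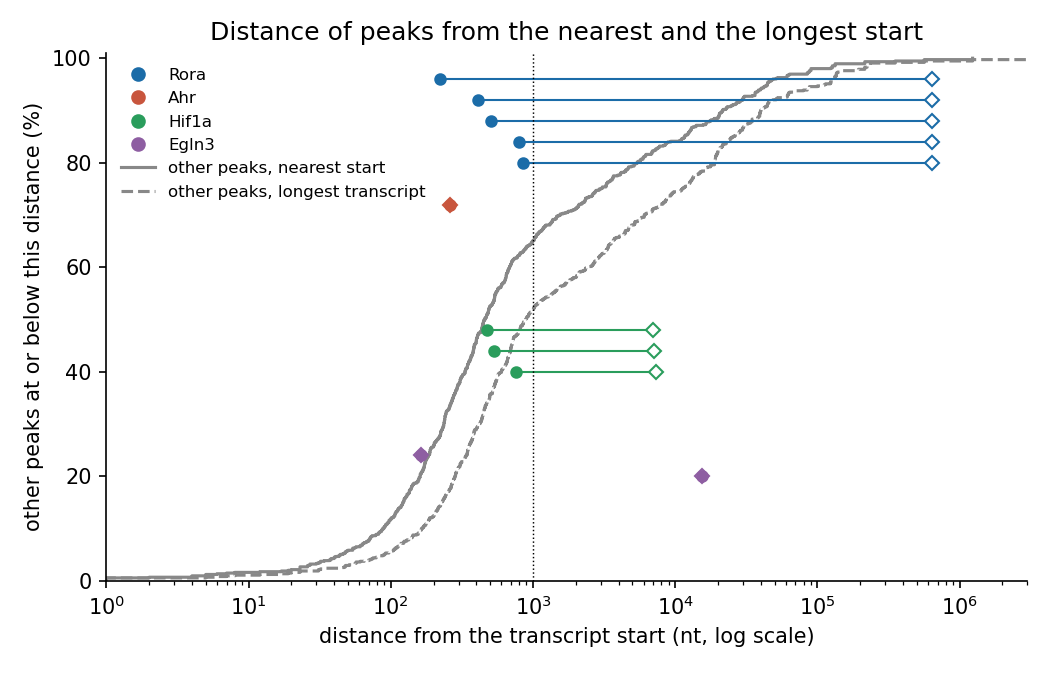
Distance of the first base of a peak from a transcript start (x, nt, log scale), with filled circles for the nearest start and open diamonds for the start of the longest transcript, 1 line per peak of the 4 genes at an arbitrary height. Grey curves give the percentage of the 755 other peaks in protein-coding genes at or below each distance (y); the dotted line marks 1000 nt, which 10 of the 11 filled circles do not reach, while the open diamonds of Rora lie at 636118 to 636749 nt.

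Sequence upstream of the peaks, at unlike distances, was available as RefSeq promoter windows (GRCm38.p6, 250 bases before to 50 after a gene's start) for 3 of the 4 genes. The windows end 127 nt before the Egln3 5′ UTR peak and 460 nt before the first Hif1a peak, while the Rora window belongs to the upstream start and ends 636068 nt before its peaks. They were searched on both strands for ACGTG, a core of the hypoxia response element, GCGTG, a core shared by hypoxia and AHR response elements, GGTCA, the end of the site bound by ROR receptors, and GGGG. ACGTG is shown because it was the hypoxia core found in each window, and capitals mark it or its reverse complement (in CACGTG both overlap).
Egln3, chr12:54204087-54204115, minus strand: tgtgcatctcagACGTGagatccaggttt
Hif1a, chr12:73907720-73907749, plus strand: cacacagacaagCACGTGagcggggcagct
Hif1a, chr12:73907785-73907813, plus strand: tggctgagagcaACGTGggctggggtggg
Rora, chr9:68653587-68653615, plus strand: ccaaacccgcctCACGTcccctctcggcc

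ACGTG was present in each of these 3 windows and in 19.6% of all 32851 windows. GCGTG was present in the Rora window and in 32.4% of all windows. GGTCA was present in the Egln3 and Hif1a windows and in 40.5% of all windows, and GGGG in all 3 and in 86.4%. A match is a description of the letters only. The sequence under the peaks themselves was not analysed here.

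Some other genes of the same pathways were also named by a peak. Over all RefSeq protein-coding genes, 1.81% (396 of 21900) were named by at least 1 peak. In a list of 30 Th17 genes, 3 had a peak, and these were Rora, Ahr and Hif1a. Of the other 27, which include the transcription factors Batf, Irf4 and Maf and the receptor gene Il23r, 0 had a peak, which allows a share of up to 11.1% (3 counts of the total). How much of each RNA these cells held is unknown here, and an RNA that is not there cannot give a peak. Over 5 lists of Th17, ROR and REV-ERB, AHR, oxygen-sensing and hypoxia target genes, 6 of the 98 genes other than Rora, Ahr, Hif1a and Egln3 had a peak (6.12%, beside 1.81% of all protein-coding genes). This difference was not tested. The lists were chosen with earlier results of these data known. The 1.81% also covers genes whose RNA these cells may not have held, so the 2 shares cannot show an enrichment of these pathways.

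Among partners of nuclear receptors, 1 of 11 genes beside Rora had peaks. This was Ncoa2, a coactivator of nuclear receptors, with deep intron peaks at log2 enrichments of 5.94 and 4.67 that began 694 and 810 nt from the nearest start. In the AHR list, 2 of 14 genes beside Ahr had a peak. Hsp90ab1, a chaperone that holds AHR in the cytoplasm, had a coding exon peak at 4.71. Nfe2l2, the antioxidant transcription factor NRF2, had a deep intron peak at 5.23 that began 1023 nt from the nearest start.

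In the oxygen-sensing list, 1 of 20 genes beside Hif1a and Egln3 had a peak. This was Siah1a, a ubiquitin ligase that can act on prolyl hydroxylases, with a 5′ UTR peak at a log2 enrichment of 5.77 that began 31 nt from the start. Arnt, the shared partner of HIF-1α and AHR, and Vhl and Egln1, a ubiquitin ligase subunit and a prolyl hydroxylase for HIF-α, were not named by any peak. Among hypoxia target genes, 2 of 31 beside Egln3 had a peak. Mxi1, an antagonist of MYC, had a 5′ UTR peak at 5.03, and the glycolytic enzyme gene Aldoa had one at 3.82. Aldoa and Siah1a peaks began next to the transcript start, at 1 and 31 nt, and the Mxi1 peak began 18898 nt from the nearest start.

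The genes whose peaks were most like those of each member were found by equal number of peaks, equal most frequent class and nearest highest log2 enrichment, with ties between classes going to the first in alphabetical order. For Egln3, which had 1 peak in each of 2 classes, this gave the 5′ UTR. Its matches were Dyrk1a (6.20) and Stk38l (6.12), out of 24 candidates with 2 peaks, and both of their peaks began within 1 kb of the nearest start, as did 1 of 2 in Egln3. For Ahr they were Mki67 (4.95) and Atp2a2 (4.89), out of 51 candidates with 1 peak in a 5′ UTR, and the 1 peak of each lay within 1 kb of a start, as in Ahr. The nearest matches of Rora were Tcf20 (6.02) and Anp32b (5.76), out of 3 candidates with 5 peaks, and their differences from Rora were -0.47 and -0.73 on the log2 scale. Of their 5 peaks each, 0 in Tcf20 and 2 in Anp32b began within 1 kb of the nearest start, against 5 of 5 in Rora. For Hif1a they were Ank2 (4.15) and Dusp4 (5.81), out of 13 candidates with 3 peaks. Their differences from Hif1a were -0.46 and 1.21, so Dusp4 was a poor match, and the 3 Ank2 peaks had the same value. Neither gene had a peak within 1 kb of a start, whereas all 3 Hif1a peaks lay there.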

How the data were processed

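DDX5 IP and input RNA from cultured Th17 cells was measured by eCLIP. Tools named in the submitters' processing notes are cutadapt 1.9.1, STAR 2.4.0i and SAMtools 1.4.1, aligned to mm10. By the settings file that the authors deposited, every IP was normalised to its own input, replicates were joined by the irreproducible discovery rate, and both the log2 fold and the −log10 p had a minimum of 3. The sources used here do not name the peak caller or annotation release. The authors deposited 1 log2 fold and 1 −log10 p per peak, with no depth per library. Samples were grouped by title.

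Coordinates in the file were taken as zero-based, and printed starts are one-based. Transcript starts, exons and introns come from the annotation inside the peak list, on the same strand and for the named gene. Distance was taken from the first base of the peak. Touching peaks were joined into sites. Of 459 symbols, 423 matched RefSeq (GRCm38.p6). Intervals of shares are exact Clopper-Pearson (Python 3.11.15, scipy 1.17.1) and cover counting error only. The limit given for a count of 0 is 3 counts of the total. The distance and site code was tested on simulated data. No test of enrichment was made, because the genes and lists were chosen with earlier results of these data known. The text names every peak of the 4 genes, every list gene with a peak, and the 2 genes most like each member. Arnt, Vhl, Egln1, Batf, Irf4, Maf and Il23r were named after their lack of a peak was seen. Alternatives covered thresholds, joining, assignment and transcript choice.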

Additional observations from a re-analysis of the deposited data

How the results depend on the processing

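Of 37 alternatives over 11 results, 28 left the value close to the main one (counts by ratio, heights by the SD over peaks, shares by their interval). Some of these could not differ, since the median and width-weighted mean of Ahr, with 1 peak, equal its highest value. The number of peaks of the 4 genes was 11, and it was 6 at a log2 enrichment of at least 5 and 6 at a −log10 p of at least 10. In both cases the number of sites was 5 in place of 9, and only Rora and Egln3 peaks were left. Joining peaks at most 500 nt apart also gave 5 sites. Pathway genes with a peak, other than the 4, numbered 3 in place of 6 at a −log10 p of at least 10. They numbered 4 at a log2 enrichment of at least 5, which was counted as close. By transcript choices added after the data were examined, 2 in place of 10 peaks lay within 1 kb of a start when the longest transcript was used, and 5 lay within 500 nt of the nearest start. The count of deep intron peaks near a splice site was 0 in place of 7 with the named transcript only. No paired analysis was possible because the list gives 1 value per peak for both replicates, and leaving out a replicate was not run for the same reason. Depth is unknown, so absence from the list is no evidence that an RNA was not bound.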

Other observations

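Many peaks had exactly the same enrichment as another peak, a count made after the data were examined. Of the 900 peaks, 367 had a log2 enrichment equal to that of another peak to 8 decimals (40.8%, over 140 distinct values), and 324 shared it with a peak of another gene (36.0%). Of the 11 peaks of Rora, Ahr, Hif1a and Egln3, 6 shared their value with a peak of another gene. These were the Rora peaks at 6.49 and 4.98, the Ahr peak, the Hif1a peaks at 3.47 and 4.60 and the intron peak of Egln3. The first and last Rora peaks differed by 0.5 on the log2 scale to 8 decimals.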
